A study of Caenorhabditis elegans with 4 samples.

Results

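Metallothioneins and the other zinc and cadmium response genes described here are 8 genes of the nematode Caenorhabditis elegans, taken by name from tables of 46904 genes: mtl-1, mtl-2, cdf-2, ttm-1, cdr-1, pcs-1, numr-1 and numr-2. RNA came from whole wild-type (Bristol N2) hermaphrodites, about 200 worms in each group, and was sequenced after poly(A) selection with a kit that keeps the strand. The comparison asks whether these genes differ with food: 2 libraries were labelled OP50 + MH-1, for Lactiplantibacillus sp. MH-1, a lactic acid bacterium, given with OP50, and 2 were labelled OP50, the Escherichia coli strain that serves as the usual laboratory food. The labels name no added metal in either group. The labels conflict on the feeding: one text gives an age of 4 days with 1 day of feeding, another gives worms 1 day old kept for 2 days on the plates, and the plates of MH-1 are described there without OP50. Whether replicates were separate cultures is not said, so p-values reflect no more than the spread of these 4 libraries, which may be technical.

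Groups follow the sample titles, here called the OP50 + MH-1 libraries and the OP50 libraries. The column heading inside each of the 4 tables names the opposite food, and the counts were not used to choose between the labels. Should the headings be right, every fold change below keeps its size and p-value and turns its sign. Libraries held between 15771890 and 21572225 counts, of which the 8 genes together took 929 and 1066 reads in the OP50 + MH-1 libraries, and 1029 and 1210 reads in the OP50 libraries.

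Metallothioneins are small cysteine-rich proteins whose thiol groups bind zinc, copper and cadmium. In the worm, mtl-2 is known mainly from the intestine and mtl-1 also from the pharynx, and both are strongly induced by cadmium and by excess zinc. Zinc itself is sensed by the nuclear receptor HIZR-1, which switches on transporters that store the metal in gut granules or send it out of the cell. Cadmium is also met by phytochelatins, peptides built from glutathione, and by stress genes such as cdr-1 and the numr pair.

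None of the 6 genes with enough reads passed the test between foods, and mtl-2 came closest, lower in both OP50 + MH-1 libraries. The other 2, numr-1 and numr-2, were too low to test. Of the 6, 0 had an adjusted p under 0.05 (edgeR quasi-likelihood test, Benjamini-Hochberg over 12640 genes), against 2.15% of all tested genes (1.82% higher, 0.332% lower). At an unadjusted p under 0.05 the count was 1, mtl-2, where 14.1% of all tested genes lay. DESeq2 called 0 of the 6, giving cdr-1 no adjusted p and mtl-2 one of 0.0514, and 4.07% of the genes it adjusted. limma-voom called 0 of the 6 and 1.28% of the genes it tested. The log2 fold change was positive in 2 and negative in 4 of the 6, with a median of -0.45, beside 6368 positive and 6272 negative among all tested genes and a median of 0.0027. One of the 6, cdr-1, passed the filter on low counts through the OP50 libraries alone, so these counts do not show a shift of the group.

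mtl-2, a metallothionein gene, lies on chromosome V from 14018270 to 14018673 on the minus strand of ce11 (WBcel235), the build of the tables. Its level was 10.03 and 9.83 CPM (reads of the gene scaled to the size of its library) in the OP50 + MH-1 libraries, from 162 and 213 reads, against 15.6 and 17.04 CPM in the OP50 libraries, from 278 and 301 reads. Both OP50 + MH-1 libraries lay below both OP50 libraries, an order that 21.6% of all tested genes shared. It also held for ttm-1 and for cdr-1, but cdr-1 entered the test through the OP50 libraries alone, which favours this order. None of the 6 had both OP50 + MH-1 libraries on top, as 24.4% of all tested genes did. The exact 95% Poisson intervals of the counts reached up to 11.7 CPM in the OP50 + MH-1 libraries and down to 13.8 CPM in the OP50 libraries, so the groups were apart by more than counting error. These intervals, and those of shares given for the other genes, cover counting error only: they treat reads as independent molecules and hold no spread between libraries. The group means were 9.93 ± 0.146 CPM in the OP50 + MH-1 libraries and 16.3 ± 1.02 CPM in the OP50 libraries (SD, n = 2 each). This is a log2 fold change of -0.72 ± 0.15 (SE), 1.64-fold lower, with a 95% interval from -1.08 to -0.35 and an adjusted p of 0.0801 (edgeR), which misses the threshold.

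The log2 fold change of mtl-2 changed little with how libraries were scaled. It was -0.73 with DESeq2 size factors and -0.67 with total counts alone (adjusted p = 0.079 and 0.0879, edgeR). For each read of pcs-1, the library held 0.519 and 0.559 reads of mtl-2 in the OP50 + MH-1 libraries, against 0.914 and 0.904 in the OP50 libraries. For each read of ttm-1 it held 0.591 and 0.642 reads of mtl-2 in the OP50 + MH-1 libraries, against 0.880 and 0.898 in the OP50 libraries. Both ratios are taken within a library and separate the groups. They are no independent check, since pcs-1 and ttm-1 had small fold changes between foods in the same fit. The ratio of mtl-2 to mtl-1, per length, overlapped between foods. It was 2.07 and 4.49 in the OP50 + MH-1 libraries, against 4.46 and 2.17 in the OP50 libraries. Leaving out any 1 of the 4 libraries kept the log2 fold change between -0.78 and -0.65. mtl-2 passed in 2 of 13 alternative settings, with its lowest adjusted p, 0.00674 (edgeR), when every gene of at least 1 read was in the fit. In that fit the log2 fold change was -0.71 with an SE of 0.19, larger than the 0.15 of the reported fit. Its lower p thus reflects no larger or more precise difference. The highest adjusted p of the alternatives with all 4 libraries was 0.0994 (limma-voom).

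mtl-1, the other metallothionein gene, lies on chromosome V from 6691371 to 6691863 on the minus strand. It had 5.20 and 2.35 CPM in the OP50 + MH-1 libraries, from 84 and 51 reads, against 3.76 and 8.43 CPM in the OP50 libraries, from 67 and 149 reads. The groups overlapped, and within each group 1 library held more than double the level of the other, by 2.21-fold among the OP50 + MH-1 libraries and 2.25-fold among the OP50 libraries. In both groups this gap was wider than counting error: the Poisson intervals ran from 4.15 to 6.44 CPM and from 1.75 to 3.09 CPM in the OP50 + MH-1 libraries, and from 2.91 to 4.77 CPM and from 7.13 to 9.90 CPM in the OP50 libraries. The gap between replicates of mtl-1, on the log2(CPM + 0.5) scale, exceeded that of 97.2% of tested genes in the OP50 + MH-1 libraries and of 98.0% in the OP50 libraries. For mtl-2 the same shares were 9.45% and 44.7%. The log2 fold change of mtl-1 was -0.71 ± 0.49 (SE), almost that of mtl-2, with a 95% interval from -1.87 to 0.46 and an adjusted p of 0.585 (edgeR). Leaving out OP50 replicate 2 brought it to -0.01, and leaving out OP50 + MH-1 replicate 1 to -1.37.

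**Figure D1:**
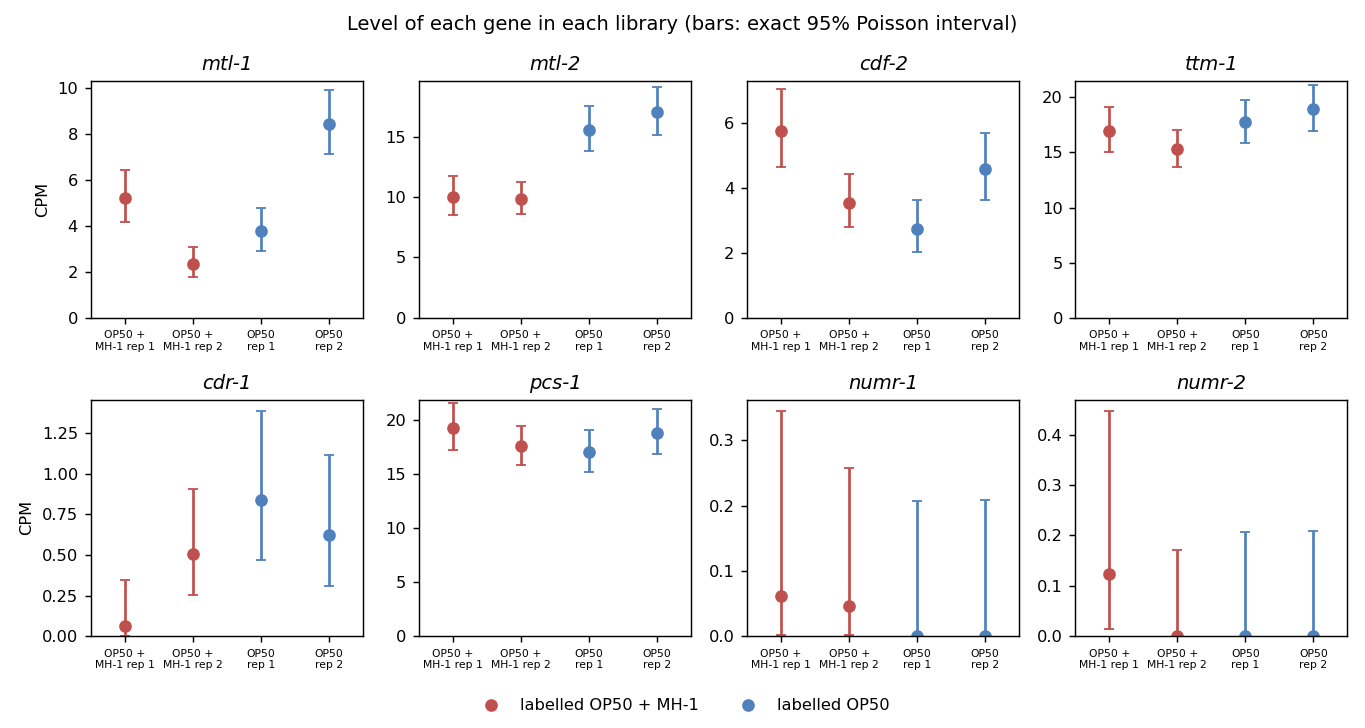
CPM of each of the 8 genes (vertical axes, linear from 0, a scale per gene) in the 4 libraries, with the OP50 + MH-1 libraries in red and the OP50 libraries in blue; bars are exact 95% Poisson intervals of the counts. For mtl-2 the red libraries stand at 10.03 and 9.83 CPM, below the blue ones at 15.6 and 17.04 CPM, while mtl-1 and cdf-2 overlap between foods.

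The proportion of the pair of metallothioneins varied between libraries by more than counting error. Of the reads of mtl-1 and mtl-2 together, mtl-1 held 34.1% in OP50 + MH-1 replicate 1 (exact binomial 95% interval 28.2% to 40.4%) and 19.3% in OP50 + MH-1 replicate 2 (14.7% to 24.6%). It held 19.4% in OP50 replicate 1 (15.4% to 24.0%) and 33.1% in OP50 replicate 2 (28.8% to 37.7%). Each food thus had a library with a high share and a library with a low share, and their intervals did not meet. The summed level of both genes was 15.2 and 12.2 CPM in the OP50 + MH-1 libraries, against 19.4 and 25.5 CPM in the OP50 libraries. Both genes have 2 exons, no gene of the tables overlaps their exons, and the first coding exon has 16 bases in each (Ensembl release 115). The reading frames hold 75 codons in mtl-1 and 63 codons in mtl-2.

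**Figure D2:**
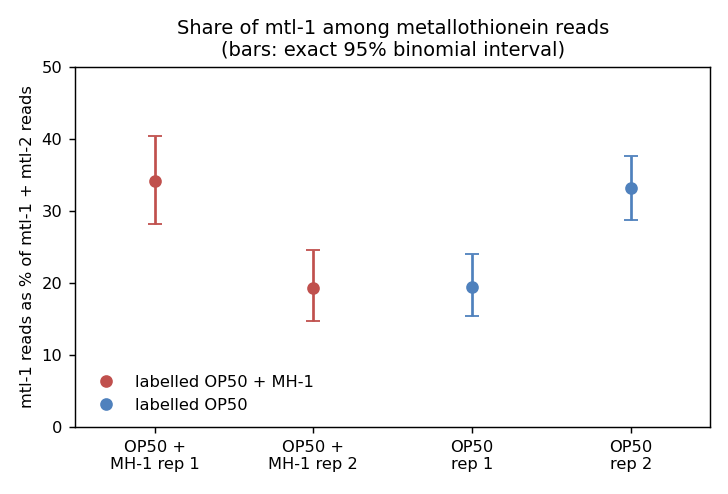
Share of mtl-1 among the reads of mtl-1 and mtl-2 (vertical axis, percent, from 0) in each library, with exact 95% binomial intervals; red marks OP50 + MH-1 libraries and blue the OP50 libraries. Each food has a library near 34% or 33% and a library near 19%.

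The zinc transporters cdf-2 and ttm-1 showed no difference between foods that passed the test. cdf-2 encodes a cation diffusion facilitator that moves zinc into the lysosome-related granules of gut cells (chromosome X, 12464640 to 12466917). Its level was 5.76 and 3.55 CPM in the OP50 + MH-1 libraries, against 2.75 and 4.58 CPM in the OP50 libraries. The groups overlapped, and the log2 fold change was 0.34 ± 0.37 (SE), with a 95% interval from -0.54 to 1.21 and an adjusted p of 0.758 (edgeR). Leaving out OP50 + MH-1 replicate 1 brought it to -0.04, and leaving out OP50 replicate 1 to 0.01. ttm-1, a related facilitator known to send zinc out of intestinal cells (chromosome III, 12952969 to 12966995), had 16.97 and 15.3 CPM in the OP50 + MH-1 libraries, against 17.7 and 18.96 CPM in the OP50 libraries. Both OP50 + MH-1 libraries were lower by a small margin, at a log2 fold change of -0.19 ± 0.14 (SE), with a 95% interval from -0.51 to 0.14 and an adjusted p of 0.611 (edgeR). Leaving out OP50 + MH-1 replicate 2 brought it to -0.11. Of the reads of both transporters, cdf-2 held 25.3% and 18.8% in the OP50 + MH-1 libraries (exact binomial 95% intervals 21.0% to 30.1% and 15.2% to 23.0%). In the OP50 libraries it held 13.4% and 19.5% (10.1% to 17.4% and 15.8% to 23.6%), so the foods overlapped.

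pcs-1 had the smallest fold change of the 6 tested genes. It encodes phytochelatin synthase, which joins glutathione units into peptides that bind cadmium (chromosome II, 11574940 to 11577258). Its level was 19.3 and 17.6 CPM in the OP50 + MH-1 libraries, against 17.1 and 18.8 CPM in the OP50 libraries. The groups overlapped, with a log2 fold change of 0.04 ± 0.14 (SE), a 95% interval from -0.28 to 0.36 and an adjusted p of 0.939 (edgeR). On the opposite strand 61 bases of its exons overlap F54D5.2, and the sources used here do not give the strand setting of the counting, so reads there may belong to either gene.

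cdr-1 and the numr genes, which cadmium is known to induce strongly, were at or near the lower limit of the libraries. cdr-1, whose product sits in the lysosomal membrane (chromosome V, 15921309 to 15922818), had 1 and 11 reads in the OP50 + MH-1 libraries, against 15 and 11 reads in the OP50 libraries. In CPM this was 0.0619 and 0.508 in the OP50 + MH-1 libraries, against 0.841 and 0.623 in the OP50 libraries. The groups did not overlap, but the Poisson interval of OP50 + MH-1 replicate 2, from 0.253 to 0.908 CPM, covered both values of OP50. The fit gave -1.25 ± 0.82 (log2 fold change ± SE; adjusted p = 0.562, edgeR), and this ran between -3.42 when OP50 + MH-1 replicate 2 was left out and -0.52 when replicate 1 of that food was. numr-1 (chromosome III, 7362619 to 7363464) and numr-2 (chromosome III, 7364385 to 7365230) encode nuclear proteins induced by metals. numr-1 had 1 and 1 reads in the OP50 + MH-1 libraries and 0 in both OP50 libraries, and numr-2 had 2 and 0 reads in the OP50 + MH-1 libraries and 0 in both OP50 libraries. A count of 0 allows up to 3 counts as a one-sided limit, which is 0.168 and 0.170 CPM in the OP50 libraries, and the two-sided Poisson intervals reach 0.207 and 0.209 CPM there, so a difference was not detectable at this depth and no fold is given. The numr genes are near-identical copies of 846 bases each, 920 bases apart on opposite strands. Ensembl release 115 gives the name numr-1 to both, and reads that fit both copies may have been left out or split.

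Levels between genes were compared per length, as CPM per kilobase of exon. mtl-2 was highest, at 28.9 and 28.3 CPM per kilobase in the OP50 + MH-1 libraries and 44.9 and 49.1 in the OP50 libraries. Next came pcs-1, with a mean over the 4 libraries of 13.5 ± 0.792, mtl-1 with 13.2 ± 6.99 and ttm-1 with 9.64 ± 0.852 CPM per kilobase (SD, n = 4). cdf-2 followed at 3.08 ± 0.965 and cdr-1 at 0.537 ± 0.347 CPM per kilobase (SD, n = 4). The 4 libraries of mtl-2 were all above those of pcs-1, and those of ttm-1 all above those of cdf-2, which were all above those of cdr-1. The ranges of pcs-1 and mtl-1 overlapped, as did those of mtl-1 and ttm-1. Among all tested genes the mean level per length of mtl-2 was above 70.8%, that of mtl-1 above 51.6% and that of cdr-1 above 5.0%.

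**Figure D3:**
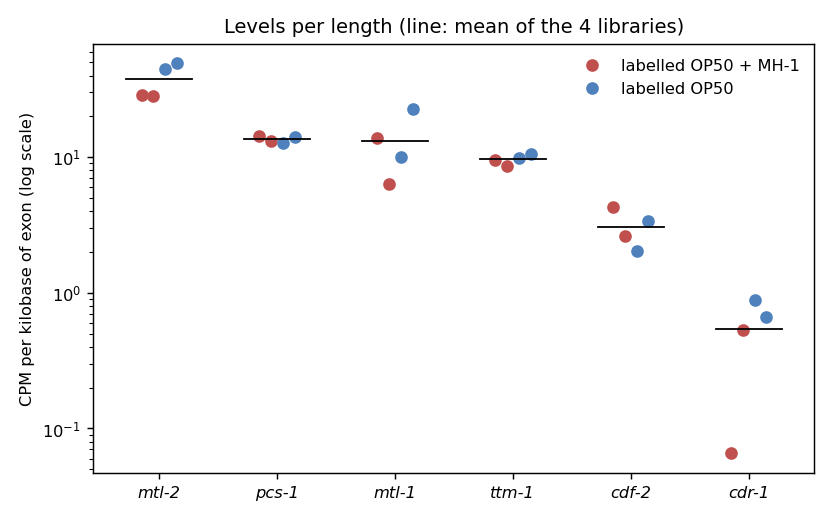
CPM per kilobase of exon (vertical axis, log scale) of the 6 tested genes, ordered by their mean over the 4 libraries (black line); red points are OP50 + MH-1 libraries and blue points the OP50 libraries. mtl-2 lies above the rest in every library, and mtl-1 spreads across the levels of pcs-1 and ttm-1.

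The wider zinc, cadmium and copper network did not pass the test either. Of 39 further listed genes, 38 were in the tables, 36 were tested, and 0 had an adjusted p under 0.05 (edgeR), against 2.15% of all tested genes (1.82% higher, 0.332% lower). At an unadjusted p under 0.05 there were 6 of the 36, where 14.1% of all tested genes lay. DESeq2 called 1 of the 36 and 4.07% of all genes it adjusted. limma-voom called 0 of the 36 and 1.28% of all genes it tested. The log2 fold change was positive in 16 and negative in 20, with a median of -0.0072, beside 0.0027 over all tested genes. Of the ZIP proteins, which bring zinc into the cytosol, 0 of 13 passed, and the largest log2 fold change was 0.81 ± 0.45 (SE) for zipt-2.2. That gene had 2.97 and 1.71 CPM in the OP50 + MH-1 libraries, against 1.06 and 1.58 CPM in the OP50 libraries. The other facilitators cdf-1, sur-7 and toc-1 had log2 fold changes between -0.07 and -0.01. The gene of that zinc sensor, hizr-1, named for its role after its values were seen, had 1.05 and 1.06 CPM in the OP50 + MH-1 libraries, against 0.953 and 1.07 CPM in the OP50 libraries.

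Of the cdr family, 0 of 5 passed, cdr-1 among them. cdr-2, cdr-6 and cdr-7, all named after their values were seen, had log2 fold changes between -0.14 and 0.31. cdr-4, named after its values were seen, had 7.74 and 7.29 CPM in the OP50 + MH-1 libraries, against 11.5 and 20.4 CPM in the OP50 libraries. The fit put it at -1.08 ± 0.28 (log2 fold change ± SE; adjusted p = 0.131, edgeR), and DESeq2 called it (adjusted p = 0.0142). pgp-1, a P-glycoprotein of heavy metal resistance, had 5.70 and 12.7 CPM in the OP50 + MH-1 libraries, against 4.82 and 4.58 CPM in the OP50 libraries, which the fit gave as 0.98 ± 0.37 (log2 fold change ± SE; adjusted p = 0.309, edgeR). It was the largest value of 6 ABC transporter and kinase genes, of which 0 passed. Of the phytochelatin and glutathione genes 0 of 4 passed, with the glutathione synthetase gene gss-1 at -0.19 ± 0.08 and the phytochelatin transporter hmt-1, named after its values were seen, at 88.9 ± 0.734 CPM in the OP50 + MH-1 libraries and 89.0 ± 0.085 CPM in the OP50 libraries (SD, n = 2 each). Of 5 regulators 0 passed, with the intestinal GATA factor elt-2, which is needed for gut expression of mtl-2, at a log2 fold change of 0.39 ± 0.23. The log2 fold change was positive in 2 and negative in 3 of the 5. Unadjusted p was under 0.05 (edgeR) for 2 of them, both lower. At that p lay 14.1% of all tested genes in either direction, and 583 of the 12640 were lower. Of the 2 copper genes 0 passed, with the copper chaperone cuc-1 at 0.35 ± 0.26 (log2 fold change ± SE).

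**Figure D4:**
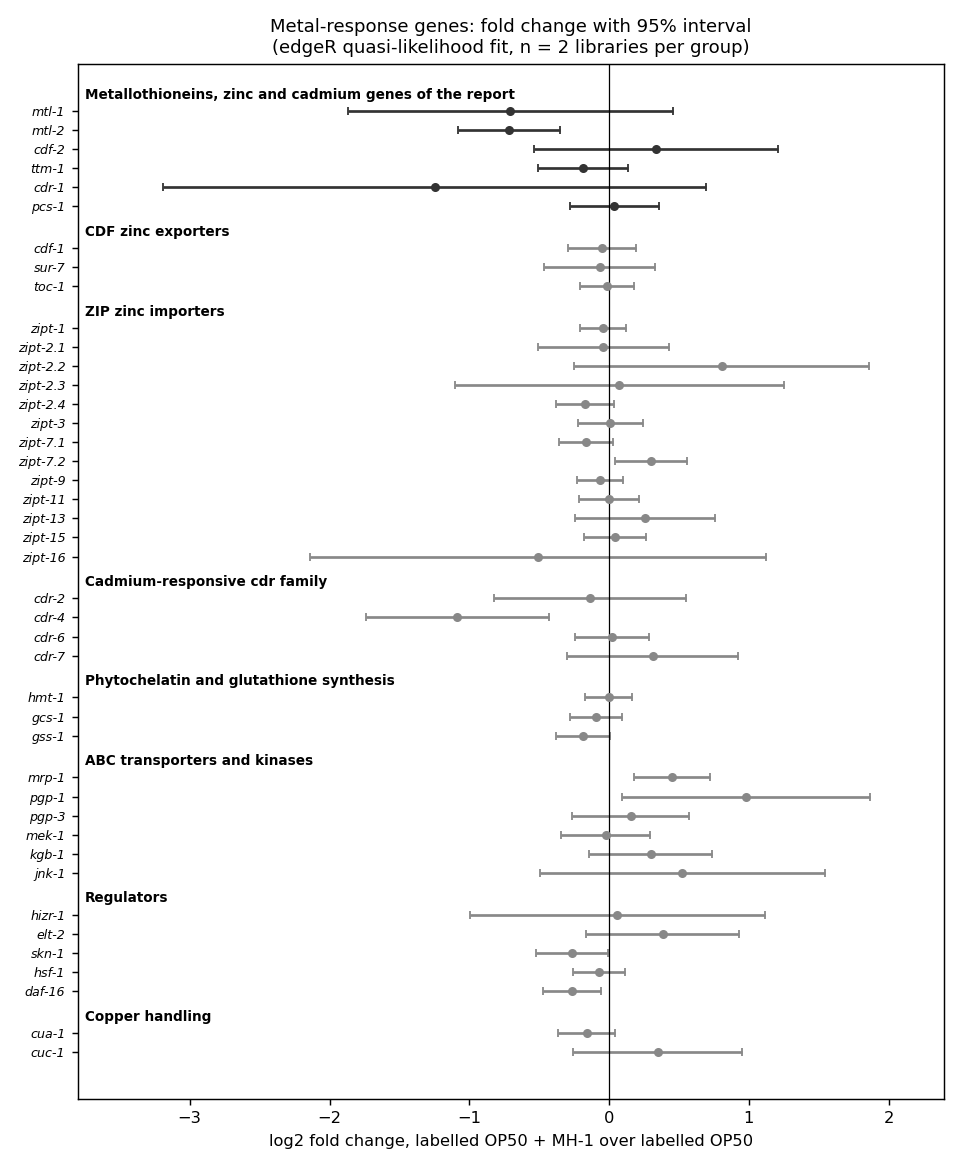
Log2 fold change, OP50 + MH-1 libraries over the OP50 libraries (horizontal axis), with 95% intervals, for the 6 tested genes in black and 36 further listed genes in grey, grouped by role. mtl-2 lies at -0.72 with an interval from -1.08 to -0.35, and the intervals of the other 5 black genes span 0.

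Profiles most like those of the metallothioneins were sought over the 4 libraries, by Euclidean distance between centred log2 CPM values, among 1100 named genes of at least 5 CPM that ranged over at least 0.5 log2 units. Nearest to mtl-2 were moe-3, fat-6 and pmt-1, at distances of 0.059, 0.064 and 0.067. The desaturase gene fat-6 had 220 and 204 CPM in the OP50 + MH-1 libraries, against 334 and 373 CPM in the OP50 libraries. Nearest to mtl-1 were spp-18, cnc-4 and twk-7, at larger distances of 0.501, 0.520 and 0.703. The caenacin gene cnc-4 had 12.4 and 6.55 CPM in the OP50 + MH-1 libraries, against 8.52 and 14.2 CPM in the OP50 libraries. Like mtl-1 it was highest in OP50 replicate 2 and lowest in OP50 + MH-1 replicate 2. Such likeness follows from choosing genes by their distance and is no separate result.

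As a sum, of which asp-1 was the largest part, intestine markers had less of the reads in the OP50 + MH-1 libraries. The 9 intestine markers in the tables summed to 2144 and 2442 CPM there, against 2991 and 3165 CPM in the OP50 libraries. Of the 9, 0 passed, 3 had a positive and 6 a negative log2 fold change, with a median of -0.11, and none was at 0 in all libraries. The GATA factor genes elt-2 and elt-7, named here after their values were seen, were among the 3 positive. They lay at 0.39 ± 0.23 and 0.25 ± 0.24 (log2 fold change ± SE). Unadjusted p was under 0.05 (edgeR) for 3 of the 9, all lower: asp-1, ges-1 and ifb-2. Among all 12640 tested genes, 583 were lower at that p. ges-1 and ifb-2, likewise named after their values were seen, lay at -0.44 ± 0.12 and -0.34 ± 0.09 (log2 fold change ± SE). The protease gene asp-1, also named after its values were seen, alone held 1101 and 1427 CPM of that sum in the OP50 + MH-1 libraries, against 1832 and 2096 CPM in the OP50 libraries. Oocyte and germline markers summed to 8460 and 8475 CPM in the OP50 + MH-1 libraries, against 9820 and 9351 CPM in the OP50 libraries. Of these 10, 0 passed, and 10 had a negative log2 fold change, with a median of -0.135. Pharynx markers summed to 75.3 and 98.6 CPM in the OP50 + MH-1 libraries, against 105.6 and 99.9 CPM in the OP50 libraries, and 0 of 5 passed. Embryo markers summed to 334 and 303 CPM in the OP50 + MH-1 libraries, against 220 and 175 CPM in the OP50 libraries. Of the 9 tested, 4 rose (adjusted p under 0.05, edgeR), where 1.82% of all tested genes did. The list was chosen with earlier results of these data known, so this share is no independent result. The log2 fold change was positive in 6 and negative in 3 of these 9. The part of these cell types in the values of mtl-2 was not tested, and in whole worms fewer cells of a type cannot be told apart from less RNA per cell.

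**Figure D5:**
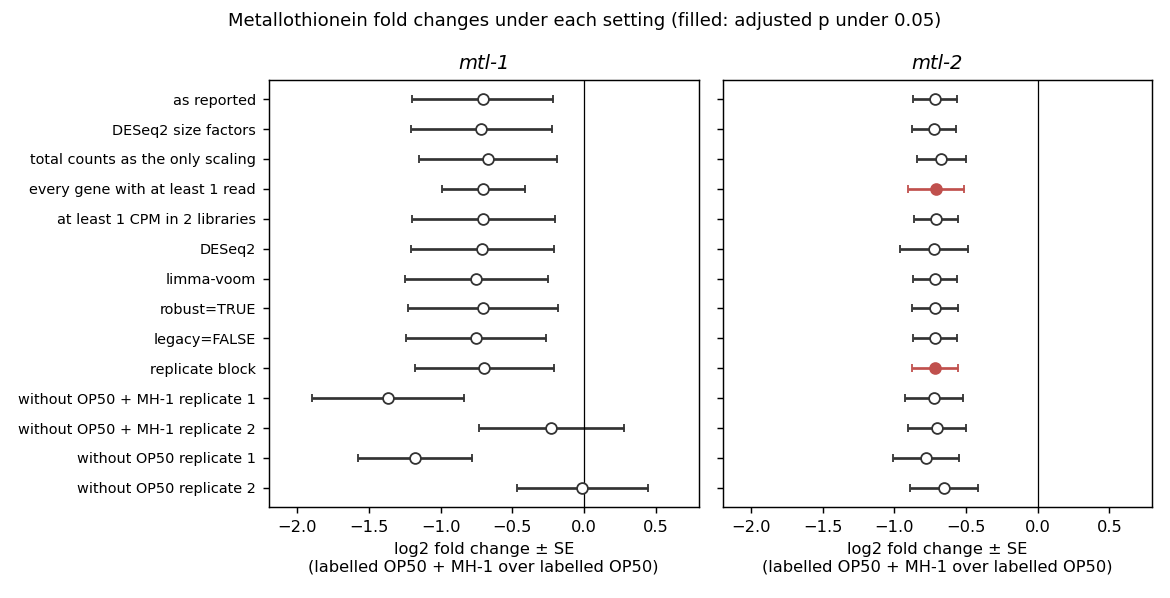
Log2 fold change ± SE (horizontal axes, OP50 + MH-1 libraries over the OP50 libraries) of mtl-1 and mtl-2 as reported and under 13 other settings (rows); filled red points have an adjusted p under 0.05. mtl-2 stays between -0.78 and -0.65, and mtl-1 runs between -1.37 and -0.01 when single libraries are left out.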

How the data were processed

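Each library came as 1 table of whole-number counts per gene, deposited by the authors without normalization, per the file headers. The submitters' processing notes name featureCounts 2.0.1, STAR 2.7.10a, cutadapt 3.7, Trimmomatic 0.39 and Trim Galore 0.6.7, and the build ce11 (WBcel235). How strand and multiply fitting reads were treated in counting, and the order of the tools, the sources used here do not give. The fit used edgeR 4.0.16 (R 4.3.3), genes kept by filterByExpr at a minimum count of 10 and a minimum total of 15, TMM scaling, and the quasi-likelihood test with food as the only term, adjusted by Benjamini-Hochberg over 12640 genes, threshold 0.05. CPM use the TMM-scaled library size, in which 3 counts are between 0.138 and 0.186 CPM. Levels per length divide by the tables' exon length, and genes as short as the metallothioneins (373 and 347 bases) offer few positions to a fragment. SE is the log2 fold change divided by the square root of F, and 95% intervals use the fit's degrees of freedom. DESeq2 1.42.0 and limma 3.58.1 served as alternatives. With 2 libraries a group the smallest exact permutation p is 0.333, so none is given per gene. Every pair of libraries differed by more than sampling noise (smallest chi-square over its degrees of freedom 10.1, between the OP50 libraries). The OP50 + MH-1 libraries differed from each other by 24.75 on this measure. OP50 + MH-1 replicate 2 differed less from OP50 replicates 1 and 2, by 19.61 and 18.93. OP50 + MH-1 replicate 1 differed more from them, by 26.47 and 33.59. The steps were run on simulated data in which all genes shared the same dispersion, and the pass rule covered only the larger simulated fold change. That run does not show whether a change as small as that of mtl-2 would be found. Nor does it cover a replicate gap as wide as that of mtl-1. Figures used matplotlib 3.10.9.

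The genes and lists were chosen with earlier results of these data known. Named beside the 8 genes are listed zinc, cadmium and copper genes past the threshold in any setting, and the largest fold change in each of their lists. The 3 nearest profiles of each metallothionein are named too. Cell type markers that passed are counted and not named. Exceptions are marked where they stand, apart from the other facilitators cdf-1, sur-7 and toc-1, which were named to complete their list. cdr-5 and the intestine marker opt-2 matched no name in the tables, and cdr-3 and zipt-17 were too low to test. Sperm, neuron, muscle and epidermis markers served as checks. Of these, 1 of 5 muscle and 1 of 4 epidermis markers rose, where 1.82% of all tested genes did. Among neuron markers 0 of 5 passed, and 0 of 5 sperm markers had enough reads to be tested.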

Additional observations from a re-analysis of the deposited data

How the results depend on the processing

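mtl-2 kept its direction in all 13 alternatives, and its call changed in 2. With every gene of at least 1 read in the fit, 1 of the 8 genes was called, lower (mtl-2), with 3 further listed genes (pgp-1, cdr-4 and mrp-1). Of all genes, it called 815 higher and 297 lower. That fit held more genes than the 12640 of the reported fit, and no share of them is given here. Whether its calls among the listed genes exceed that share is thus not shown. With the replicate number as a block, mtl-2 was called (log2 fold change -0.72, adjusted p = 0.0456, edgeR), as the 1 gene of the 8, lower. This fit also called 1 further listed gene (cdr-4) and, of the 12640 genes tested, 450 higher and 109 lower. The block changed no other call of the 8. The correlation of same-numbered deviations was 0.198, and with only 2 pairs whether same-numbered libraries share more than a number is undecided. DESeq2 called 1 further listed gene (cdr-4) and of all genes 369 higher and 95 lower, and limma-voom 135 higher and 27 lower, where the reported fit has 230 and 42. Leaving out single libraries gave 99 to 395 higher and 20 to 95 lower genes of all tested, and between 0 and 1 further listed gene (cdr-4 without OP50 replicate 1). These fits leave 1 library alone in its group, which is assumed to vary like the other group. There the log2 fold change of cdf-2 ran between -0.040 (leaving out OP50 + MH-1 replicate 1) and 0.75, and that of pcs-1 between -0.033 (leaving out OP50 replicate 1) and 0.11, so each changed sign. The cause of these changes was not tested. The restriction to protein-coding genes was not run, since the type column of the tables names no type. With CPM from total counts no level per length moved by more than its SD. The low counts of cdr-1, numr-1 and numr-2 limit what their values can show.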
